A study of Mus musculus with 9 samples.

Results

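F4/80high and F4/80low tumour-associated macrophages (TAMs) from mouse fibrosarcoma, a malignant tumour of connective tissue, were compared with each other across all genes. The comparison took the 3 arrays titled as F4/80high TAMs and the 3 titled as F4/80low TAMs, 6 of the 9 arrays in the series. The other 3 carried peritoneal exudate cells. They served here to share the estimate of the spread and to help choose the probes tested, and 966 genes were kept only through them. All mice were of the C57BL/6J strain, and no genotype, treatment, age or tumour stage was given for either TAM group. Total RNA was purified on silica columns and labelled with the green dye Cy3. The labels named no sorting marker other than F4/80, so the cells that each gate admitted are not known beyond that. The design text called the arrays biological replicates, without saying whether they came from separate animals, so the p-values measure only the spread between these samples.

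F4/80, the product of Adgre1, is an adhesion receptor on the surface of most mature mouse macrophages. Tumours recruit blood monocytes, which gain F4/80 and major histocompatibility complex (MHC) class II as they mature into macrophages, so that a tumour holds a mixture of recently arrived and longer-resident cells. A gate on low F4/80 can also admit other leukocytes. Interferons, which macrophages both make and respond to, switch on a common set of antiviral and antigen-presentation genes through DNA elements close to their start sites.

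The 6 arrays lay on 1 slide, and same-numbered F4/80high and F4/80low arrays were neighbours on it. Of 59305 non-control spots per array, 36.1 to 38% were well above background by the scanner's own criterion, and none was saturated. Levels are given as log2 of the processed signal minus the array's own 75th percentile, so that 0 is that percentile. A positive difference means more in F4/80high TAMs, and a difference of 1 is a doubling. After a filter on dim probes, 16457 genes were tested with limma and Benjamini-Hochberg adjustment over all of them, and "rose", "fell" or "passed" below refers to an adjusted p under 0.05. Arrays of F4/80high TAMs correlated at 0.977 to 0.989 with each other and those of F4/80low TAMs at 0.964 to 0.979, against 0.889 to 0.921 between the groups. The standard deviation (SD) over 3 arrays was larger in F4/80low TAMs for 8493 of the 13380 genes well above background on all 6 arrays, with medians of 0.262 and 0.194.

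F4/80high TAMs carried far more transcript of complement, antigen-presentation, interferon-induced and inflammatory genes, and F4/80low TAMs far more transcript of neutrophil, T cell and NK cell genes. In all, 5369 genes passed (32.6% of those tested), 3065 higher in F4/80high TAMs (18.6%) and 2304 higher in F4/80low TAMs (14%). Of the genes that passed, 1903 were at least 2-fold higher in F4/80high TAMs (11.6% of those tested) and 1588 at least 2-fold higher in F4/80low TAMs (9.65%), and 30 and 176 differed by at least 16-fold. Separately from the test, the arrays of the groups did not overlap for 46.7% of all genes tested. The split between directions depended on the scaling, which has to assume that some quantity is equal on all arrays. Of the genes that passed, 57.1% were higher in F4/80high TAMs here, 75.8% when arrays were scaled to their medians, 37% when they were scaled to the 75th percentile of detected probes and 63.3% when only genes well above background on all 9 arrays were tested. The median scaling moved the median over all genes by 0.32 and the detected-probe scaling by -0.25, whereas 0 genes that passed here passed in the opposite direction under either. Differences near the median of all genes, 0.08, should be read against those shifts. Counts of list members that rose or fell should likewise be read against the shares over all genes tested, 18.6% and 14%. List members that the filter kept only through a single TAM group had to be higher in that group.

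**Figure D1:**
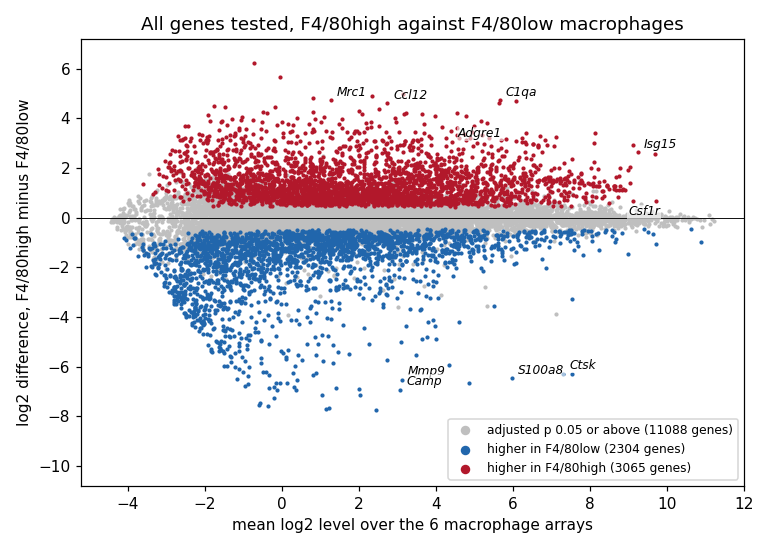
Difference between the groups (log2, F4/80high minus F4/80low) against the mean log2 level over the 6 macrophage arrays, 1 point per gene. Red and blue points are the 3065 genes higher in F4/80high and the 2304 higher in F4/80low TAMs, and the largest differences, beyond -7, lie on the F4/80low side.

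Adgre1 itself stood at 6.21, 5.89 and 5.70 in F4/80high TAMs and at 2.78, 3.44 and 2.45 in F4/80low TAMs. That difference of 3.05 (SE 0.27, adjusted p 8.24e-05) follows from the sort and has the direction of the labels. Csf1r, the receptor for the macrophage growth factor CSF1, stood at 9.15, 8.80 and 8.43 against 9.07, 8.85 and 8.74. The groups overlapped, and its difference of -0.09 (SE 0.20) did not pass. Of 22 tested genes of a macrophage identity list, 13 rose in F4/80high TAMs and 1, the inhibitory receptor Sirpa, fell, with a list median of 1.57 against 0.08 over all genes. The list and the 13 include Adgre1, whose rise follows from the sort. Sirpa, at -1.09 (adjusted p 0.0389), kept its call only without F4/80high replicate 1 when any 1 of the 9 arrays was left out, with adjusted p from 0.0524 to 0.119 otherwise. Cd68 (-0.50), the integrin subunit Itgam (-0.03) and the lineage factor Spi1 (0.34) did not pass.

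Receptors of mature tissue macrophages differed most within that list. Mertk, a receptor for dying cells, stood at 2.70, 2.48 and 1.99 in F4/80high TAMs and was not well above background on any F4/80low array, so that it was at least 29.1-fold higher. Here and below, "at least" sets the mean of the brighter group against the level in the other group. Where that level lay below the array's dimmest signal measurable above background, the dimmest signal was put in its place. The mannose receptor Mrc1 stood at 4.07, 3.60 and 3.25 against -1.50, -1.44 and -0.31, a difference of 4.72 (SE 0.33, adjusted p 2.43e-05). The groups were well apart for both. The folate receptor Folr2 (2.65) and the sialic acid receptor Siglec1 (3.86) also rose in F4/80high TAMs, Siglec1 by 3.23 without F4/80low replicate 1. In bulk RNA such as this, fewer cells of a type and less RNA per cell cannot be told apart.

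The largest rises among genes measured on all 6 arrays are led by P2ry6, a receptor for uridine nucleotides, at 6.38, 5.55 and 5.07 in F4/80high TAMs and 0.20, 0.92 and 0.86 in F4/80low TAMs. It was 32.1-fold higher in F4/80high TAMs. It was followed by the collagen gene Col14a1 (29.4-fold) and the adhesion receptor Nectin2 (28.2-fold). Then came C1qa, Mrc1, C1qc, C1qb and the chemokine Ccl12, at 24.3- to 26.5-fold. Fcrls, Pdpn, which encodes podoplanin, and the oxysterol-forming enzyme Ch25h followed at 18.4- to 20.6-fold. Pdpn differed by 4.23 on the log2 scale and by 3.53 without F4/80low replicate 1. Besides Mertk, the largest lower bounds belonged to Plxdc2 (at least 16.3-fold), Nxpe5 (12.6-fold), the transcription factor Zbtb46 (11.8-fold), Htra4 (11.2-fold) and the TGF-beta co-receptor Eng (11.2-fold). These 6 genes were well above background on no F4/80low array. Zbtb46 and Htra4 were kept only through F4/80high TAMs and so had to be higher there.

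The 12 largest falls among genes measured on all 6 arrays were Camp (121-fold higher in F4/80low TAMs), Chil3 (100-fold), Mmp9 (92.4-fold), S100a8 (88.1-fold), S100a9 (79-fold), Ctsk (78-fold), Lcn2 (61.2-fold), Ltb (54.9-fold), Plac8 (53.2-fold), Slc9b2 (46.2-fold), Stfa2 (45-fold) and Asprv1 (42.5-fold). Most are known from neutrophils, and Mmp9, Ctsk and Slc9b2 also from osteoclasts. Genes well above background on only 1 or 2 F4/80high arrays were not ranked, and some had larger fitted falls. Among them were Retnlg (212-fold), Gzmc (206-fold) and Ngp (201-fold), which the filter kept only through F4/80low TAMs. S100a9, the partner of S100a8, stood at 6.12, 2.14 and 4.93 in F4/80high TAMs against 11.40, 10.50 and 10.20, and its difference of -6.30 became -5.18 without F4/80high replicate 2. Among genes well above background on no F4/80high array, the largest lower bounds were those of Cstdc5 (at least 68.3-fold higher in F4/80low TAMs), the chitinase-like gene Chil1 (56.5-fold), Gzma (54.2-fold), Mmp8 (53.5-fold), Itgb3 (52.4-fold) and Pglyrp1 (50.2-fold), a peptidoglycan-binding protein of neutrophil granules. F4/80low replicate 1 was the highest array for Cstdc5, Chil1, Mmp8 and Pglyrp1, and without it their bounds were 34.1-, 32.1-, 34.7- and 17.6-fold. Without F4/80low replicate 3 the bound of Pglyrp1 was 99.9-fold. Chil1, Gzma and Pglyrp1 were kept only through F4/80low TAMs and so had to be higher there. Stfa2 and Asprv1 fell by 5.49 and 5.41 on the log2 scale, and by 4.67 and 4.63 without F4/80low replicate 1.

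**Figure D2:**
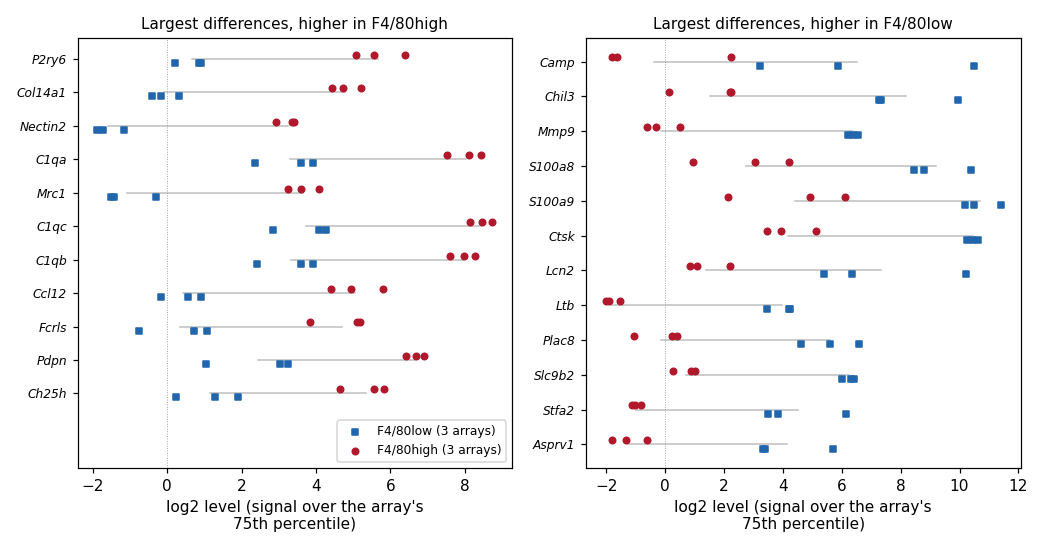
Log2 level on each array (0 is the array's 75th percentile) of 11 genes with the largest rises and the 12 with the largest falls in F4/80high TAMs, red circles for F4/80high and blue squares for F4/80low arrays, with a grey line joining the group means. No pair of groups overlaps, and the blue squares of Camp and Lcn2 are spread far more widely than those of Mmp9, Ctsk and Slc9b2.

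Transcripts of complement, the cascade of plasma proteins that tags particles for uptake, were mostly higher in F4/80high TAMs. Its first component, C1q, is assembled from 3 chains encoded side by side on chromosome 4, and macrophages are a main source of it. The probes of C1qb, C1qc and C1qa begin at bases 136436578, 136445766 and 136452409 of chromosome 4 in mm9, per the file's annotation. C1qa stood at 8.43, 8.11 and 7.52 in F4/80high TAMs against 2.37, 3.60 and 3.91 in F4/80low TAMs (difference 4.73, SE 0.42, adjusted p 8.24e-05). C1qb (4.63, SE 0.43) and C1qc (4.71, SE 0.40) differed by much the same amount, and in each chain F4/80low replicate 1 was the lowest array. Of 14 tested complement genes 10 rose and 0 fell, with a median of 2.28. The alternative pathway factor Cfb rose by 3.13 (SE 0.36) and the anaphylatoxin receptors C3ar1 and C5ar1 by 2.05 and 2.50. C3, the central component, overlapped between the groups, at 6.96, 6.81 and 6.72 against 7.53, 6.11 and 5.18, and passed only without F4/80low replicate 1 (1.19, adjusted p 0.0123).

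Antigen presentation rose by both routes. For MHC class II, which presents engulfed material to helper T cells, the invariant chain gene Cd74 stood at 9.39, 9.34 and 9.0 in F4/80high TAMs and 6.51, 7.55 and 6.93 in F4/80low TAMs (difference 2.25, SE 0.36, adjusted p 0.00158). The peptide exchange factor H2-DMa rose by 2.97 (SE 0.32), H2-Aa by 2.29 (SE 0.31) and the processing enzymes Lgmn and Ctss by 2.37 and 1.69. Of 13 tested class II genes 8 rose and 2 fell (median 1.69). The pair that fell were H2-Oa, which restrains peptide exchange and is characteristic of B cells (-1.26, SE 0.31), and H2-Eb2. The class II regulator Ciita (-0.89, adjusted p 0.0502) did not pass, but did without F4/80low replicate 1 (-1.04, adjusted p 0.0453). For MHC class I, which displays fragments of the cell's own proteins, 16 of 21 genes rose and 0 fell, with a median of 1.11. They included the heavy chain H2-K1 (1.11, SE 0.22), its light chain B2m (0.84, SE 0.19), the peptide pump subunit Tap1 (2.12, SE 0.27) and the immunoproteasome subunit Psmb10 (1.86, SE 0.26). The chaperones Calr, Canx and Pdia3, between -0.03 and 0.39, did not pass.

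Interferon-induced genes were higher in F4/80high TAMs almost without exception. Of 30 antiviral effectors, 28 rose in F4/80high TAMs and 0 fell, with a median of 2.25, and 28 had no overlap between the groups, against 27% of all genes tested with every F4/80high array above every F4/80low array. Isg15, a ubiquitin-like modifier, stood at 10.57, 10.67 and 10.47 against 7.61, 7.54 and 8.68 (difference 2.63, SE 0.31, adjusted p 0.000312). Ifit3, which helps to hold back viral RNA translation, stood at 8.41, 8.81 and 8.98 against 4.16, 6.29 and 6.06 (3.23, SE 0.60). Rsad2, which encodes viperin, stood at 9.74, 9.53 and 9.62 against 5.80, 7.15 and 6.90 (3.01, SE 0.35). The groups were separate for all 3 genes, and the F4/80high arrays lay closer together than the F4/80low arrays. Oas1g (1.70, adjusted p 0.157) did not pass, although it did without F4/80low replicate 3 (2.62, adjusted p 0.0231).

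The guanylate-binding proteins and immunity-related GTPases, which attack the membranes around intracellular microbes, behaved alike: 16 of 17 rose, 0 fell, and the median was 1.92. Gbp5 stood at 8.18, 8.03 and 8.03 against 4.60, 5.73 and 5.38 (2.84, SE 0.29, adjusted p 0.00017), and Gbp2 at 7.48, 7.98 and 7.88 against 4.10, 6.12 and 5.60 (2.51, SE 0.44). F4/80low replicate 1 was the lowest of the 3 F4/80low arrays for 28 of the 30 antiviral effectors and 17 of these 17 GTPase genes, and it also had the highest neutrophil transcript of the 6 arrays. The part of those transcripts in this order was not tested. Without that array 28 of the 30 effectors still rose, with a median of 1.73, and 14 of the 17 GTPases with a median of 1.72. Gbp2 then stood at 1.92, Ifit3 at 2.56 and the GTPase gene Mx1 at 2.36 instead of 3.03.

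The promoters of 4 of these genes are shown because they carry the interferon-stimulated response element, the DNA sequence bound by interferon-activated transcription factors. They were picked after the values were seen, and 11 motifs were searched in all. Each runs from 250 bases before to 50 bases after the start site given by RefSeq, on the gene's own strand in GRCm38.p6, with matches in capitals. A match is GAAA, any 2 bases and GAAA, on either strand, so that it reads TTTC, any 2 bases and TTTC where it lies on the other strand. Ifit1 is at chr19:34640639-34640938 on the plus strand, Ifit3 at chr19:34583279-34583578 on the plus strand, Isg15 at chr4:156200769-156201068 on the minus strand and Gbp2 at chr3:142620413-142620712 on the plus strand.
Ifit1: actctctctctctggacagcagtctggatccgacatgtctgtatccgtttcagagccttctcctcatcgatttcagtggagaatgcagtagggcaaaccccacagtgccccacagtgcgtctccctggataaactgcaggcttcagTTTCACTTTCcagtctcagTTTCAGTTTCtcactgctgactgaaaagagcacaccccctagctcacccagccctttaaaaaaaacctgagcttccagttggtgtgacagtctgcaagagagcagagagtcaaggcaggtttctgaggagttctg
Ifit3: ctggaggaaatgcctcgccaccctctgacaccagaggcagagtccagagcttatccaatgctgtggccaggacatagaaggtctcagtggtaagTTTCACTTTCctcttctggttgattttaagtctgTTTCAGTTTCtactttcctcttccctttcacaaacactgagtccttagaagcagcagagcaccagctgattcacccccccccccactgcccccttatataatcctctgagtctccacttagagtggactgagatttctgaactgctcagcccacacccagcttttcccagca
Isg15: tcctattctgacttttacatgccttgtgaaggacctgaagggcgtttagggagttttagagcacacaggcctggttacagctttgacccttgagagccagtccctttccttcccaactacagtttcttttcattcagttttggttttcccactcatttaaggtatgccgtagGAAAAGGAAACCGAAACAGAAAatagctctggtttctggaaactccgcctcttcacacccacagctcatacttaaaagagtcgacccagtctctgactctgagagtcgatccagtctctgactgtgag
Gbp2: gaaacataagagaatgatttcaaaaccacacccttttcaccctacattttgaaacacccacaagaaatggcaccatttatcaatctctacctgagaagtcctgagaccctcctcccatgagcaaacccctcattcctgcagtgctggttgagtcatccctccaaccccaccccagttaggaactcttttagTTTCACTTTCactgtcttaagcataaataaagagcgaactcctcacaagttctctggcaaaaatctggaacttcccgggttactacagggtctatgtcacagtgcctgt
Isg15 holds 3 overlapping matches, Ifit1 and Ifit3 hold 2 each and Gbp2 holds 1. Of the antiviral effectors with a promoter given, 13 of 22 (59.1%) held this element, and of the GTPase list 9 of 10 (90%), against 1079 of all 27025 promoters given (3.99%). The share was 7.65% among genes higher in F4/80high TAMs (151 of 1975), 2.1% among genes higher in F4/80low TAMs (29 of 1379) and 4.03% among all genes tested. A match describes the letters in this window and does not show that a factor binds there.

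Cytokines and inflammatory enzymes were higher in F4/80high TAMs, of opposite function included. Il10, the main anti-inflammatory cytokine of macrophages, stood at 3.74, 3.32 and 3.21 against 0.29, -0.13 and -0.19 (difference 3.43, SE 0.22, adjusted p 1.53e-05). Il6, which drives the acute phase response, stood at 5.92, 4.76 and 4.92 against 2.11, 1.88 and 1.19 (3.47, SE 0.33). Nos2, the inducible nitric oxide synthase, stood at 5.88, 6.87 and 5.24 against 2.27, 2.68 and 2.08 (3.65, SE 0.44, adjusted p 0.00038). The groups were separate for all 3. Ptgs2, the inducible cyclooxygenase, rose by 3.14 (SE 0.22), the feedback inhibitors Socs3 and Socs1 by 3.42 and 3.01 and the costimulatory receptor Cd40 by 2.98. Tnf rose by 1.76 (SE 0.39, adjusted p 0.00769). Il1b overlapped between the groups, at 6.79, 6.02 and 6.31 against 7.10, 6.52 and 5.53, and did not pass (-0.01, SE 0.37). Of 24 tested members of the list 16 rose and 0 fell (median 2.08).

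Most CC chemokines, which attract leukocytes, were higher in F4/80high TAMs. Ccl4, which encodes MIP-1 beta, stood at 10.07, 9.73 and 9.76 against 6.58, 6.64 and 6.10 (3.42, SE 0.22, adjusted p 1.53e-05). Ccl12, a ligand of CCR2, stood at 5.79, 4.93 and 4.39 against -0.16, 0.90 and 0.57 (4.60, SE 0.37). Ccl2 and Ccl7, which share that receptor, rose by 2.78 and 3.84. Of 12 tested CC chemokines 8 rose and 2, Ccl17 and Ccl24, fell. Ccl24 was not well above background on any macrophage array, and Ccl17 was so on 1 of 3 F4/80high arrays. Both calls were lost without F4/80high replicate 1 or 3, F4/80low replicate 2 or peritoneal replicate 2 or 3, and 1 of them without F4/80high replicate 2, F4/80low replicate 1 or peritoneal replicate 1. Among CXC chemokines 6 of 9 rose and 0 fell, and 4 or 5 of 9 when any 1 of the 9 arrays other than F4/80high replicate 3 was left out. Cxcl10, induced by interferons, stood at 9.69, 10.30 and 9.88 against 7.71, 8.22 and 8.13 (1.93, SE 0.21, adjusted p 0.000231), whereas Cxcl11 (-0.16, SE 0.18) overlapped between the groups. With the replicate number as a block, Cxcl9 and Cxcl3 no longer passed (adjusted p 0.0635 and 0.0643). Cxcl9 also lost its call without F4/80high replicate 1 or 2, F4/80low replicate 1 or any peritoneal array, and Cxcl3 without any TAM array or peritoneal replicate 2.

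Chemokine receptors went both ways. Of 12 tested chemokine receptors 2 rose, among them the non-signalling receptor Ccrl2 (1.83, SE 0.24), and 5 fell. Cxcr4, the receptor for the retention signal CXCL12, stood at 0.81, -0.38 and 0.73 in F4/80high TAMs and at 2.11, 2.16 and 2.18 in F4/80low TAMs (-1.77, SE 0.29). Cxcr2 and Cxcr1, the neutrophil receptors, were not well above background on any F4/80high array. Ccr2, the receptor of inflammatory monocytes, overlapped between the groups (-0.13, SE 0.89). That SE takes in the peritoneal arrays, with an SD of 2.27, against 0.21 in F4/80high and 0.44 in F4/80low TAMs.

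Ligands that act on T cells were divided. Of 18 tested checkpoint and costimulation genes 10 rose and 4 fell (median 1.12), and 9 rose and 2 fell without F4/80high replicate 3. Cd274, which encodes PD-L1, stood at 5.34, 5.45 and 5.38 against 2.55, 4.55 and 3.70 (1.79, SE 0.46, adjusted p 0.0153). Pdcd1lg2, which encodes the other PD-1 ligand, PD-L2, went the other way, at -1.47, -1.27 and -1.53 against 0.01, 1.18 and 0.12 (-1.86, SE 0.34). The costimulators were divided likewise, Cd86 rising by 2.57 (SE 0.37) and Cd80 falling by 1.59 (SE 0.23), although a second probe for Cd80 gave -0.27. Nectin2, a ligand of the T cell and NK cell receptors TIGIT and CD226, stood at 3.41, 3.36 and 2.93 against -1.72, -1.15 and -1.88 (4.82, SE 0.25, adjusted p 5.91e-06). Genes of alternative activation, the response to interleukin-4 and interleukin-13, gave 4 rises and 5 falls among 18. Arg1 overlapped between the groups (0.27, SE 0.51), the receptor chain Il4ra rose by 1.97 (SE 0.28) and the chitinase-like gene Chil3 fell by 6.65 (SE 0.96), or by 5.95 without F4/80high replicate 2 and 5.76 without F4/80low replicate 1. Without F4/80high replicate 2, 2 of the 18 rose and 4 fell, and 3 fell without F4/80high replicate 3, F4/80low replicate 2 or peritoneal replicate 2 or 3.

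**Figure D3:**
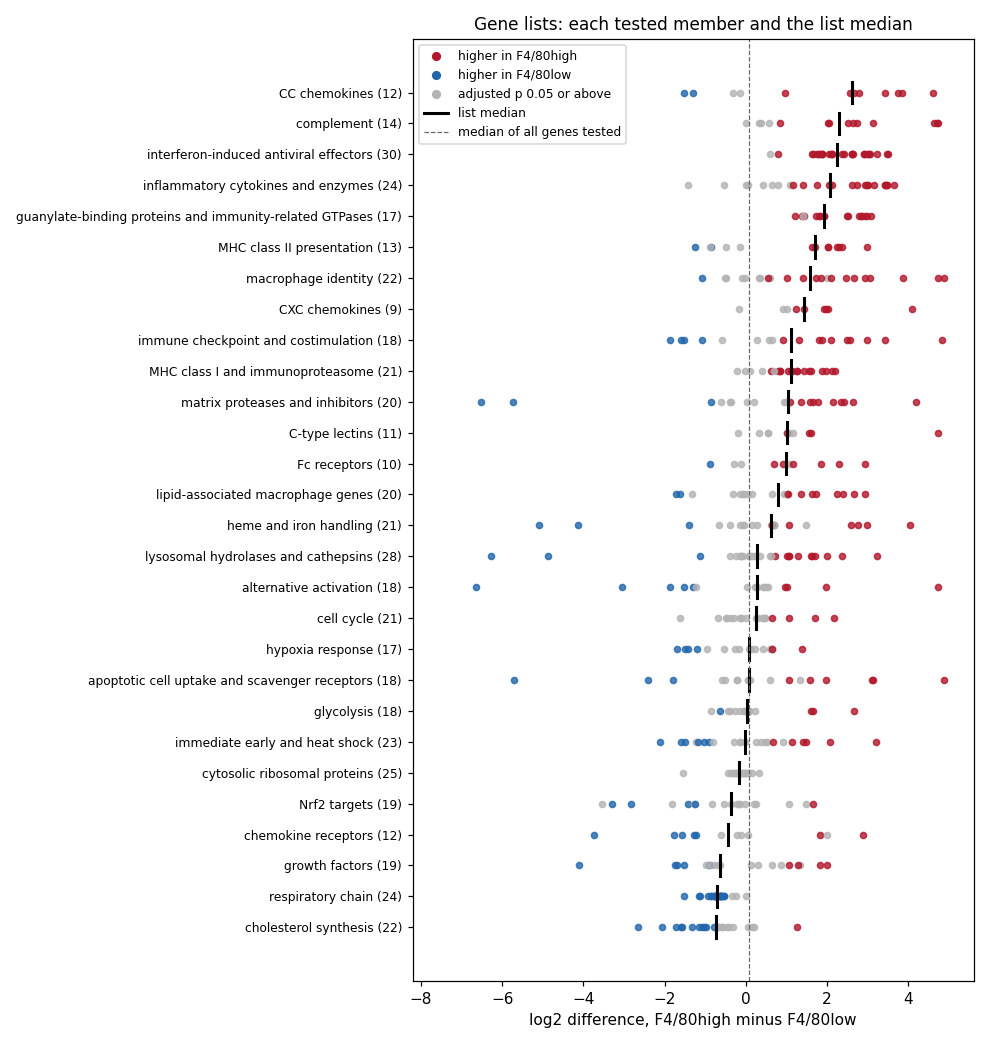
Difference between the groups (log2, F4/80high minus F4/80low) of each tested member of 28 gene lists, 1 row per list with the number tested in brackets, black bars at the list medians and a dashed line at the median of all genes tested, 0.08. Members at a lower bound are drawn at it. The interferon-induced, GTPase and class I lists lie almost wholly to the right, the respiratory chain list to the left, and the lysosomal and matrix protease lists have a few members far to the left of the rest.

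Receptors and enzymes of uptake showed a similar division. The immunoglobulin receptors Fcgr1 (2.94, SE 0.59) and Fcgr2b (1.85, SE 0.47) and their signalling chain Fcer1g (1.17, SE 0.21) rose. Of 10 tested genes of Fc receptor signalling 6 rose and 1, the phosphatase Inpp5d, fell (median 0.98). Without F4/80low replicate 3 or F4/80high replicate 1 or 2, 3 of the 10 rose, and Inpp5d lost its call without F4/80high replicate 2 (adjusted p 0.0605). Of 11 tested C-type lectins 4 rose and 0 fell (median 1.00). Of 18 tested genes for the uptake of dying cells and lipoproteins 6 rose and 3 fell (median 0.07). With Mertk rose the related kinase Axl (1.96, SE 0.21) and the scavenger receptors Msr1 (3.10, SE 0.25) and Stab1 (3.13, SE 0.31). Mfge8, a bridge between dying cells and integrins, stood at 3.29, 3.24 and 3.47 against 4.83, 5.42 and 5.13 (-1.80, SE 0.26), and its receptor subunit Itgb3 was at least 52.4-fold higher in F4/80low TAMs, where a second probe gave -2.73 on the log2 scale.

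Individual lysosomal proteases differed widely and in both directions. Of 28 tested hydrolases and lysosomal membrane proteins 11 rose and 3 fell, with a median of 0.28, or 0.60 under the median scaling. Ctsc, the cathepsin that activates serine proteases, stood at 7.19, 6.96 and 6.86 against 3.73, 3.84 and 3.78 (3.22, SE 0.16, adjusted p 4.99e-06), and the membrane protein Lamp1 rose by 1.63 (SE 0.15). The 3 that fell were cathepsin K, Ctsk, the proton pump subunit Atp6v0d2 and the hexosaminidase Hexa (-1.13, SE 0.24). Ctsk, a collagenase best known from osteoclasts, stood at 3.92, 3.46 and 5.11 in F4/80high TAMs and at 10.27, 10.45 and 10.63 in F4/80low TAMs. It was 78-fold higher in F4/80low TAMs (difference -6.28, SE 0.37, adjusted p 1.08e-05).

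Matrix proteases were divided in the same manner. Mmp9, a gelatinase made by neutrophils and by osteoclasts, stood at -0.32, -0.63 and 0.49 against 6.39, 6.54 and 6.21, 92.4-fold higher in F4/80low TAMs (-6.53, SE 0.32, adjusted p 4.99e-06). Mmp8, the neutrophil collagenase, was at least 53.5-fold higher there, or 34.7-fold without F4/80low replicate 1. Fibronectin Fn1 rose by 2.63 (SE 0.26) and the inhibitor Timp1 by 2.41 (SE 0.50). Of 20 tested members 10 rose and 3 fell (median 1.03), and 6 rose without F4/80high replicate 1. Among 19 tested growth factors 4 rose and 5 fell, and 3 rose and 3 fell without F4/80low replicate 2. The angiogenic factors Vegfa (-1.69, SE 0.44), Vegfb (-1.75, SE 0.35), Vegfc (-1.52, SE 0.36) and Angpt2 (-4.10, SE 0.41) were all higher in F4/80low TAMs. Vegfa missed the threshold without F4/80high replicate 3 or F4/80low replicate 2 (adjusted p 0.0565 and 0.0557). The list median, -0.64, moved to 0.10 without F4/80low replicate 1.

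The cathepsin, protease, pump and integrin genes that stood so much higher in F4/80low TAMs are known together from osteoclasts, the bone-resorbing cells that form by fusion of macrophage precursors. A list of 26 osteoclast genes was therefore put together after these values were seen, and it is described without a test. On every array, 16 of the 26 were higher in F4/80low than in F4/80high TAMs, 1 was lower (Mitf) and 9 overlapped. Over all genes tested, 19.7% had every F4/80low array above every F4/80high array. The 16 include Ctsk, Mmp9, Atp6v0d2 and Itgb3, whose values prompted the list, and Slc9b2, already seen among the largest falls. The count set against that share is therefore not a test. The sodium/proton exchanger Slc9b2 stood at 1.02, 0.27 and 0.88 against 6.43, 6.32 and 6.00, and Atp6v0d2 at 1.24, 0.46 and 1.91 against 6.01, 5.95 and 6.29. The fusion protein Dcstamp stood at 1.48, 0.55 and 1.09 against 5.53, 5.28 and 5.41, the receptor Oscar at -0.44, -0.54 and -0.73 against 3.75, 3.84 and 3.73, and the master transcription factor Nfatc1 at 1.56, 1.24 and 1.29 against 4.07, 4.14 and 3.93. The calcitonin receptor Calcr and Siglec15 were not well above background on any F4/80high array and were at least 6.53-fold and 14.7-fold higher in F4/80low TAMs. Calcr was kept only through F4/80low TAMs and so had to be higher there. The 3 F4/80low arrays were close together for some of these genes, with SDs of 0.06 for Oscar, Calcr and Siglec15 and 0.11 for Nfatc1. Others among the 16 were more spread, such as Itgb3 (SD 0.50), Ocstamp and Ckb (0.39 each) and Car2 (0.38). The peritoneal exudate cells stood near F4/80low TAMs for some of the 16 and below F4/80high TAMs for others. Their mean level was 6.18 for Atp6v0d2 and 4.85 for Dcstamp, against 6.08 and 5.41 in F4/80low TAMs. For Mmp9 and Oscar it was -2.08 and -1.46, against -0.15 and -0.57 in F4/80high TAMs.

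The size of the difference varied within the list. Acp5, which encodes the tartrate-resistant phosphatase used to stain osteoclasts, stood at 10.72, 10.33 and 10.14 in F4/80high TAMs and 11.36, 11.21 and 11.61 in F4/80low TAMs, a difference of -0.99. Tnfrsf11a, the receptor RANK (0.31), the kinase Src (0.01) and the pump subunit Tcirg1 (0.20) overlapped between the groups. Of genes known to hold back the osteoclast programme, also chosen after their values were seen, Bcl6 (1.11) was lower on every F4/80low array than on any F4/80high array and Irf8 (0.48) overlapped.

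**Figure D4:**
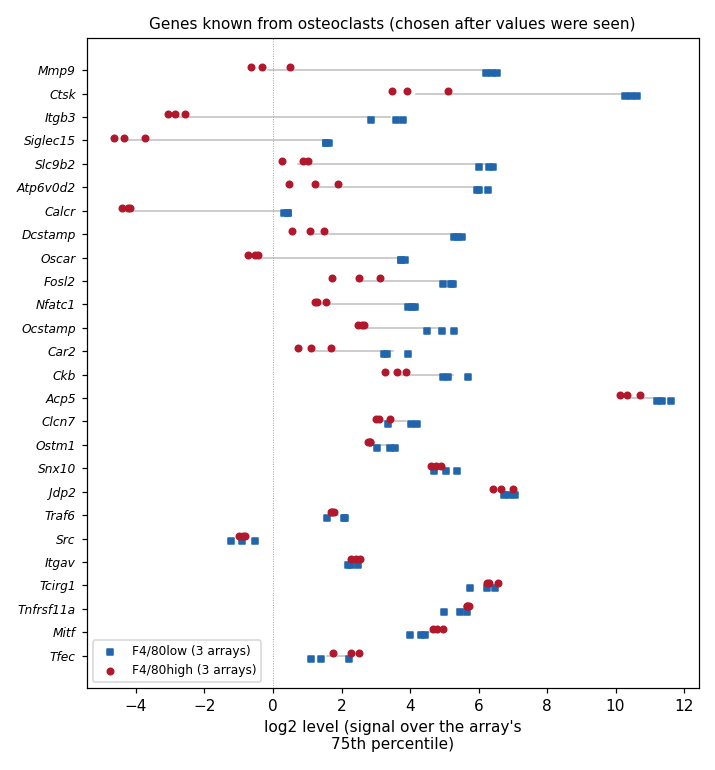
Log2 level on each array (0 is the array's 75th percentile) of 26 genes known from osteoclasts, chosen after values were seen, red circles for F4/80high and blue squares for F4/80low arrays. The blue squares lie above the red circles for 16 genes, and the red circles of Itgb3, Siglec15 and Calcr are not well above background.

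Markers of other leukocytes were much higher in F4/80low TAMs. Of 30 neutrophil markers listed, 27 were tested, 11 of which were kept only through F4/80low TAMs and so had to be higher there. All 27 were well above background on all 3 F4/80low arrays and 12 on all 3 F4/80high arrays. 23 fell in F4/80high TAMs and 0 rose, with a median of -5.49 when genes below background were put at their bound. The summed level of the 27 markers, in multiples of the 75th percentile, was 250 to 374 in F4/80high TAMs and 2050 to 9200 in F4/80low TAMs. F4/80low replicate 1 was the highest F4/80low array for 26 of 27, so the amount of neutrophil transcript was unequal within the group.

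S100a8, a subunit of the calprotectin complex abundant in neutrophils and monocytes, stood at 4.22, 0.96 and 3.06 in F4/80high TAMs and 10.38, 8.79 and 8.46 in F4/80low TAMs (-6.46, SE 0.77, adjusted p 0.000342). Without F4/80high replicate 1 it stood at -7.20 and without replicate 2 at -5.57. Camp, a peptide of the secondary granules that neutrophils fill while still in the bone marrow, stood at 2.25, -1.63 and -1.80 against 10.50, 5.88 and 3.21 (-6.92, SE 1.66, adjusted p 0.0116). Its difference ranged from -4.94 without F4/80low replicate 1 to -8.58 without F4/80low replicate 3, and was -8.24, -6.30 and -6.22 without F4/80high replicates 1, 2 and 3. The granule protein Lcn2 (-5.93, SE 1.02) showed the same order and stood at -4.49 without F4/80low replicate 1 and -6.90 without replicate 3. Mpo, made at an earlier stage, stood at 7.06, 0.83 and -1.55 in F4/80low TAMs and did not pass (adjusted p 0.118), except without F4/80low replicate 3 (-5.74, adjusted p 0.0209). The receptor Cxcr2 was at least 13.4-fold higher in F4/80low TAMs, or 7.30-fold without F4/80low replicate 1, whereas Csf3r, which macrophages also express, stood at 7.83, 7.74 and 7.79 against 7.99, 7.50 and 7.86.

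Of 24 listed T cell markers 17 were tested, 13 of which fell in F4/80high TAMs and 0 rose (1 rose without F4/80low replicate 2), and of 20 NK and cytotoxic cell markers 16 were tested, of which 16 fell. Kept only through F4/80low TAMs, and so bound to be higher there, were 8 and 13 of these. Well above background on all 3 F4/80high arrays were 6 and 2. The 2 NK markers were Prf1 (-0.91) and Nkg7 (-0.65, with -5.88 from a second probe). The T cell receptor chain Cd3d was at least 14.1-fold higher in F4/80low TAMs, Thy1 at least 42.5-fold, the chemokine Xcl1 at least 44.7-fold and the granzyme Gzma at least 54.2-fold. All stood well above background on the 3 F4/80low arrays and on no F4/80high array, and all were among the markers kept only through F4/80low TAMs. The summed level of the T cell markers was 22.5 to 23.9 in F4/80high and 44.6 to 99.3 in F4/80low TAMs, and that of the NK markers 11.1 to 12.6 and 79.3 to 129. Here F4/80low replicate 2 was the highest for 14 of 17 and 13 of 16. Ltb, a lymphotoxin subunit made mostly by lymphocytes, stood at -1.53, -2.02 and -1.89 against 4.21, 4.23 and 3.45, with no overlap.

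Monocyte markers went both ways. Of 18 tested, 10 fell and 3 rose, with a median of -1.46. Plac8 stood at 0.24, -1.05 and 0.42 in F4/80high TAMs and 6.60, 5.60 and 4.61 in F4/80low TAMs (-5.73, SE 0.74). Neutrophils also express several of these genes, and Chil3, Hp and Ifitm6 were, as for the neutrophil list, highest in F4/80low replicate 1. Without it Hp stood at -3.73 instead of -4.89 and Ifitm6 at -3.65 instead of -5.08, and without F4/80low replicate 3 they stood at -5.50 and -5.85 (Ifitm6 at -5.73 without replicate 2). Dendritic cell markers gave 6 rises and 6 falls among 22. The filter kept 3 of the 22 only through F4/80high TAMs, among them Zbtb46, and 5 only through F4/80low TAMs, among them Flt3. The direction of those members was therefore fixed. Flt3, the growth factor receptor of dendritic cells and early progenitors, was at least 9.16-fold higher in F4/80low TAMs (6.00-fold without F4/80low replicate 2), whereas Zbtb46, a transcription factor of the dendritic cell lineage, was at least 11.8-fold higher in F4/80high TAMs and Itgax rose by 1.90 (SE 0.30). Few markers of other lineages were measurable: 6 of 17 for mast cells, basophils and eosinophils (0 rose and 4 fell, median -1.63), 3 of 18 for B cells (1 rose and 1 fell, -0.36), 8 of 20 for fibroblasts (0 and 3, -0.51), 4 of 15 for endothelium (1 and 0, -0.08), 3 of 12 for erythroid cells (0 and 1, -0.32), 3 of 12 for platelets (1 and 1, -0.57) and 2 of 13 for epithelium and mesothelium (0 and 1, -1.24). The part of these cells in the differences of other genes was not tested.

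**Figure D5:**
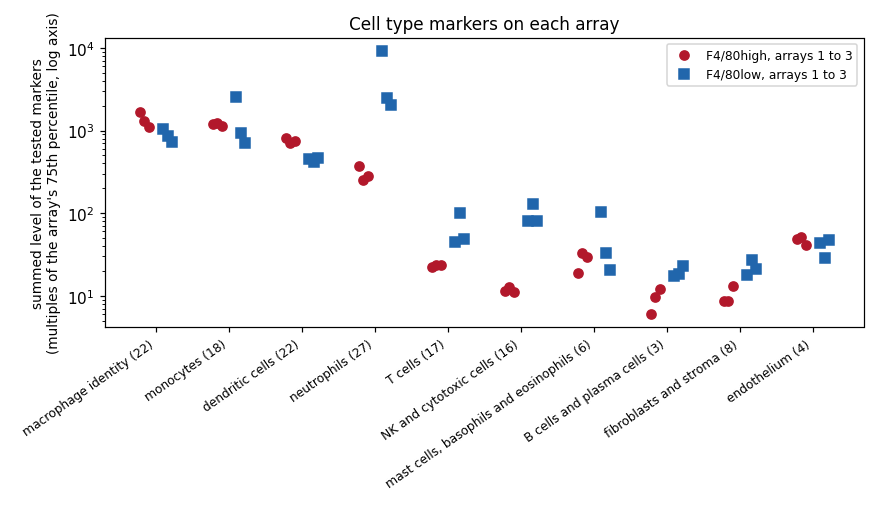
Summed level of the tested markers of each cell type on each array, in multiples of the array's 75th percentile on a log axis, red circles for F4/80high and blue squares for F4/80low arrays 1 to 3 from left to right, with the number of markers tested in brackets. Neutrophil markers sum to 9200 on F4/80low array 1 and to no more than 374 on the F4/80high arrays, and NK markers to 79.3 to 129 against 11.1 to 12.6.

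Metabolic genes differed less, and here the scaling matters more. Cholesterol synthesis genes, which are switched on together when cell sterol is low, were higher in F4/80low TAMs for 11 of 22 tested and higher in F4/80high TAMs for 1, with a median of -0.73. Sqle, the squalene epoxidase, stood at 1.75, 1.41 and 1.83 against 2.92, 2.88 and 2.65 (-1.15, SE 0.17, adjusted p 0.00118), Idi1 fell by 1.60 (SE 0.27) and Cyp51 by 2.65 (SE 0.35). Under the median scaling 7 of the 22 were higher in F4/80low TAMs, with a median of -0.42.

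The promoter of Hmgcs1, which encodes the synthase at the head of the pathway, is shown after its values were seen as an example of the CCAAT box, letters that recur in the promoters of sterol-regulated genes, where the factor NF-Y works beside the sterol-regulated factor SREBP2. It lies at chr13:119690101-119690400 on the plus strand of GRCm38.p6 in RefSeq, and capitals mark CCAAT on the other strand, which reads ATTGG here.
Hmgcs1: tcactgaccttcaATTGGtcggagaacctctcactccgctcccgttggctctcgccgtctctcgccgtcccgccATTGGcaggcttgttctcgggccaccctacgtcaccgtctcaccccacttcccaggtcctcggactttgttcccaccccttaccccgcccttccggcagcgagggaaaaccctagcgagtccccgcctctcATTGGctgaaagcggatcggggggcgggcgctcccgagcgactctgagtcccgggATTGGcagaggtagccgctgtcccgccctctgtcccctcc
It holds 4 matches. Hmgcs1 stood at 3.45, 3.21 and 3.46 against 4.31, 4.18 and 3.99 (-0.79, SE 0.19, adjusted p 0.0129), and missed the threshold without F4/80high replicate 2 (adjusted p 0.0553) and under the median scaling (-0.47). Of the 16 cholesterol synthesis genes with a promoter given, 16 held a CCAAT box (100%), against 41.1% of all 27025 promoters given, 42.7% of all genes tested (3954 of 9266), 43.4% of those higher in F4/80low TAMs and 40.3% of those higher in F4/80high TAMs.

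Of 24 respiratory chain subunits, which pass electrons to oxygen in mitochondria, 21 were higher in F4/80low TAMs and 0 in F4/80high TAMs, with a median of -0.71. Sdha, the catalytic subunit of complex II, stood at 4.22, 4.15 and 4.09 against 5.30, 5.19 and 5.41 (-1.14, SE 0.16, adjusted p 0.000773), and Ndufa4 fell by 1.53 (SE 0.19). The median kept its sign under each scaling tried, but 2 of 24 passed under the median scaling (median -0.39), and 13 passed without F4/80high replicate 2 or 3. F4/80low replicate 1 was the highest F4/80low array for 20 of the 24, and without it 15 passed. Of 25 ribosomal protein genes 0 passed, with a median of -0.18, which became 0.14 under the median scaling and -0.42, with 11 higher in F4/80low TAMs, under the detected-probe scaling. Glycolysis gave 3 rises and 1 fall among 18 (median 0.02), the rises being the hexokinases Hk2 (1.64) and Hk3 (1.60) and the regulator Pfkfb3 (2.67). The hypoxia list gave 2 rises and 4 falls among 17 (median 0.08), and Nrf2 targets, which respond to oxidants, 1 rise and 4 falls among 19 (median -0.38), led by Osgin1 (-3.30, SE 0.42). Of the hypoxia genes 0 rose without F4/80high replicate 1 or F4/80low replicate 2, and 1 rose without F4/80high replicate 2 or 3, F4/80low replicate 3 or peritoneal replicate 3. Of the Nrf2 targets 2 rose and 7 fell without peritoneal replicate 1. The glycolysis gene that fell lost its call without F4/80high replicate 3, F4/80low replicate 1 or 2 or peritoneal replicate 2 or 3.

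Of 21 tested genes of heme and iron handling 7 rose and 3 fell (median 0.61), and 4 rose without F4/80high replicate 1 or 2. Tfrc, the transferrin receptor through which cells take up iron, stood at -1.73, -2.04 and -1.86 in F4/80high TAMs and at 3.32, 3.20 and 3.11 in F4/80low TAMs (-5.09, SE 0.19, adjusted p 1.85e-06), and 2 more probes gave -5.43 and -3.85. Slc40a1, the iron exporter ferroportin, stood at -1.77, -1.76 and -1.54 against 3.05, 2.49 and 1.77 (-4.13, SE 0.30). The groups were far apart for both. Cp, a ferroxidase that works with the exporter, rose by 4.03 (SE 0.33) and Hfe, a partner of the transferrin receptor, by 2.99 (SE 0.37). Tfrc was well above background on only 2 F4/80high arrays and Cp on only 2 F4/80low arrays, so the sizes of their differences are uncertain. Cp was kept only through F4/80high TAMs and so had to be higher there. The ferritin genes Fth1 and Ftl1 did not pass (-0.08 and -0.04).

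Of 20 tested genes of lipid-associated macrophages 9 rose and 2 fell (median 0.78). The apolipoprotein gene Apoe stood at 10.84, 10.49 and 10.46 against 7.34, 7.60 and 8.08 (2.92, SE 0.22, adjusted p 2.94e-05), Pparg rose by 2.25 (SE 0.33) and the cholesterol exporter Abca1 by 1.36 (SE 0.29). Lpl, the lipoprotein lipase, fell by 1.73 (SE 0.18). Trem2 rose by 1.00 (SE 0.19) but did not pass in the deposited value table (0.44, adjusted p 0.11).

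Of 23 tested immediate early and heat shock genes, which respond within minutes to handling or stimulation, 6 rose and 6 fell (median -0.02), and 5 rose and 2 fell without F4/80high replicate 2 or 3, while 3 fell without F4/80low replicate 1 or 2. Fos (-1.59, SE 0.30) and Jun (-1.49, SE 0.28) were higher in F4/80low TAMs and the phosphatases Dusp1 (2.08, SE 0.33) and Dusp2 (3.20, SE 0.28) in F4/80high TAMs. Of 21 tested cell cycle genes 4 rose and 0 fell (median 0.24), and the share that rose was near the 18.6% over all genes tested. Mki67, a marker of cycling cells, stood at 4.08, 3.39 and 2.58 in F4/80high TAMs and 5.05, 2.25 and 1.31 in F4/80low TAMs, so that the groups overlapped. F4/80low replicate 1 was the highest F4/80low array for all 21 genes of this list. Without it 7 of the 21 were higher in F4/80high TAMs, with a median of 0.78, and without F4/80low replicate 3 the median was -0.48.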

How the data were processed

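Gene expression was measured on 1-colour Agilent arrays. Per the file headers, the deposited values are linear intensities of single arrays from Feature Extraction 10.5.1.1, background-subtracted and detrended, with no normalization between arrays. The submitters' processing notes name Agilent Feature Extraction. A deposited value table holds log2 values by the authors for 9703 probes (column medians 8.26 to 8.35, correlation with the array's own log2 signal 0.960 to 0.978). Its normalization is not given in the sources used here, and it served as an alternative.

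Each processed signal was expressed as log2 relative to the 75th percentile of that array, taken without the control spots. Outlier spots were left out and spots of a probe averaged. A probe stayed in (21197 did) where the scanner criterion held on every array of 1 or more of the 3 groups. Genes kept only through the group where they are high had to differ (528 through F4/80high and 560 through F4/80low TAMs). The brightest probe stood for each gene. Of 55681 probes, 26527 were named by matching accessions to RefSeq and 29154 kept the file's name, and 1625 tested features are named by a chromosome range only. Among called genes with at least 2 probes, 1083 of 1180 had all probes in 1 direction.

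All 9 arrays entered a single limma fit (limma 3.58.1, R 4.3.3, matplotlib 3.10.9), with a Benjamini-Hochberg threshold of 0.05. Each SE therefore takes in the spread of the peritoneal arrays, of which replicates 2 and 3 lay on another slide. The step was tested on simulated data. The number of arrays limits the precision. Same-numbered F4/80high and F4/80low arrays are slide neighbours, although F4/80high replicate 2 also lay beside F4/80low replicate 1. Residuals of same-numbered arrays correlated at 0.23, 0.17 and 0.13, against at most 0.02 for different numbers. Residuals taken from group means push the values of different numbers down where those of equal numbers are positive. They therefore do not show that the numbers pair the arrays, and the labels do not say so.

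Named genes were Adgre1, the 12 largest rises and falls without overlap among called genes measured on all arrays of both groups, the 6 largest bounds each way, and members of gene lists. Genes and lists were chosen with earlier results of these data known, the osteoclast genes and the promoters after their values were seen. Alternatives changed the background correction, scaling, filter, probe rule, array weights, replicate block and arrays included. Some genes that the naming rule covers are not reported here.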

Additional observations from a re-analysis of the deposited data

How the results depend on the processing

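Over 38 summary results (counts of calls and list medians) and every alternative run, 717 values stayed within the spread or within 1.5 times the count, 40 moved and 2 changed sign. Over 619 single genes, 11329 values kept their call, 216 gained one, 497 lost one and 2 reversed: Steap3 to -0.85 with the mean of its probes and Rps6 to -0.28 in the deposited value table. The cause was not tested.

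With the replicate number as a block 5635 genes passed instead of 5369. Of single genes, 13 gained a call under the block and 6 lost it, among them Havcr2 (adjusted p 0.0522) and Mmp13 (0.0708), and it moved no summary result. Leaving out 1 array gave 3912 (without F4/80high replicate 2) to 5509 calls, 2181 to 3172 higher in F4/80high and 1731 to 2337 higher in F4/80low TAMs.

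Genes higher in F4/80low TAMs numbered 1294 under median scaling, 3547 under the detected-probe percentile and 1497 when required well above background on all 9 arrays. With normexp correction the list medians were 1.38 for complement, -0.40 for cholesterol synthesis, -0.04 for ribosomal proteins, -0.11 for growth factors, -2.90 for neutrophils, -1.46 for T cells, -1.41 for NK cells and -0.63 for mast cells. In the deposited value table they were 1.09 for complement, 0.76 for class I, 1.58 for inflammatory genes, -0.75 for hypoxia, -0.95 for the respiratory chain, -0.06 for growth factors, -0.31 for immediate early genes, -2.22 for T cells, -1.71 for NK cells and -0.82 for mast cells. Median scaling gave 1.43 for class I, 0.60 for lysosomal genes, -0.42 for cholesterol synthesis, 0.39 for hypoxia, -0.39 for the respiratory chain, 0.30 for immediate early genes and, with the sign changed, 0.14 for ribosomal proteins. The detected-probe percentile gave -0.17 for hypoxia, -0.96 for the respiratory chain and -0.42 for ribosomal proteins, and quantile normalization 0.85 for class I and -0.89 for the respiratory chain. Requiring all 9 arrays gave 1.83 for chemokine receptors, 1.19 for apoptotic uptake, 0.27 for heme and iron, -0.29 for T cells and -0.78 for NK cells, over fewer genes, and the 6 TAM arrays alone 1.06 for apoptotic uptake. Fitted medians without bounds, which these compare with, were -5.58 for neutrophils, -4.00 for T cells and -4.38 for NK cells. Leaving out 1 array moved medians between 0.21 and 0.61 for heme and iron, -0.09 and 0.27 for immediate early genes and -0.64 and 0.10 for growth factors.

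Signals near background carry no order, so fold sizes of the dim genes are lower bounds.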

Other observations

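A few genes outside the lists were looked up after values were seen and are given without a test. Ifnb1, which encodes interferon beta, stood at 6.25, 5.50 and 5.44 in F4/80high TAMs and at 1.24, 1.99 and 1.47 in F4/80low TAMs. Il33, an alarmin of the interleukin-1 family, stood at 2.79, 2.73 and 2.81 in F4/80high TAMs and was well above background on 1 F4/80low array. Aif1, which encodes the macrophage protein IBA1, stood at 7.47, 7.11 and 6.80 against 2.81, 3.44 and 3.44. The groups were separate for Ifnb1 and Aif1.

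Some single arrays stood far from their group. Hmox1, the heme oxygenase, stood at 4.16 on F4/80low replicate 2 and at 7.94 and 8.94 on the other F4/80low arrays, while a second probe gave a difference of 0.49 where this one gave 1.48. Tkt, a transketolase, stood at -3.62 on F4/80high replicate 3 and at 7.29 and 7.05 on the others. Rpl5 stood at 2.43 on that array and at 6.81 and 6.33 on the others. Probes of a gene also differed: those of Igf1 gave 0.13, 2.47, 2.85, -0.12 and -0.05, and those of Nkg7, a cytotoxic granule gene, -0.65 and -5.88.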
